A study of Homo sapiens with 34 samples.

Results

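Osteoblasts are the cells that lay down bone matrix and then mineralize it, and U2OS is a human line grown from an osteosarcoma, a tumor of that lineage. The 8 osteoblast lineage genes described here were RUNX2, SP7, SPARC, SPP1, IBSP, BGLAP, ALPL, and TNFRSF11B, chosen by symbol, and each was found in 1 of the 28690 loci of the expression tables. RNA-seq was performed on U2OS cells that stably carry Bmal1:luc, a luciferase reporter of the clock gene Bmal1, after synchronization with dexamethasone, a glucocorticoid, and growth in DMEM. The cells of 1 condition received 5 mM 6-aminonicotinamide (6AN), an inhibitor of NADPH production by the pentose phosphate pathway (PPP), and the control cells received DMSO. Libraries from rRNA-depleted total RNA were labelled every 4 hr from 0 to 44 hr, with 1 library for each hour and condition, so 24 in all. BMAL1 and CLOCK binding was measured by ChIP-seq after 24 hr of incubation with 6AN or DMSO in the same line, with 1 library for each antibody and condition. This time need not match the labelled 24 hr of the RNA-seq series. All samples came from 1 tumor line, so they describe how U2OS uses these genes rather than normal bone.

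In osteoblasts, the transcription factor RUNX2, with its partner CBFB, commits precursors to the lineage, and SP7 (osterix) acts after it. The matrix holds collagen together with the noncollagenous proteins SPARC (osteonectin), SPP1 (osteopontin), IBSP (bone sialoprotein), and BGLAP (osteocalcin), while the phosphatase ALPL removes the mineralization inhibitor pyrophosphate. TNFRSF11B (osteoprotegerin) is a secreted decoy receptor that binds the osteoclast-inducing ligand TNFSF11 (RANKL).

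RUNX2 recognizes sites that include the letters ACCACA, which read TGTGGT on the other strand, and BMAL1 and CLOCK bind the E-box CACGTG. The 250 bases before RefSeq start sites were searched for these exact letters on both strands. Other forms of either site were not searched, so a window without a match can still hold one. A match of one motif cannot be a match of the other. In GRCh38.p14, 6 of the 8 genes had 9 such windows, while SP7 and TNFRSF11B had none in the table used. ACCACA was found in 3 windows and CACGTG in 1, and of all 35116 windows in the table, 10.98% held the first and 6.34% the second. The windows with a match are shown, together with that of SPARC, the member with the highest level, which held neither. They are written 5′ to 3′ on the strand of the gene, with matches in capitals.
RUNX2 (first start site, chr6:45328080-45328329, plus strand): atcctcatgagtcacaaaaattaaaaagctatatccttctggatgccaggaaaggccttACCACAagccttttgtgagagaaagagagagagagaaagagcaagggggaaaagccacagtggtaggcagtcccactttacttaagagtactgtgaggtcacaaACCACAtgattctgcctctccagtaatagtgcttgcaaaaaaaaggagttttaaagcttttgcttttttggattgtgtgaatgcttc
SPP1 (chr4:87975464-87975713, plus strand): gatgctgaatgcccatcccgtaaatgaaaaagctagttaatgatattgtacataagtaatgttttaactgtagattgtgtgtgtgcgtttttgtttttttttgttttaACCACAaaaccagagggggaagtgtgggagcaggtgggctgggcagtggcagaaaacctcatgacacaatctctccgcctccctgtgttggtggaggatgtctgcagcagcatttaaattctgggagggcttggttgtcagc
BGLAP (chr1:156241934-156242183, plus strand): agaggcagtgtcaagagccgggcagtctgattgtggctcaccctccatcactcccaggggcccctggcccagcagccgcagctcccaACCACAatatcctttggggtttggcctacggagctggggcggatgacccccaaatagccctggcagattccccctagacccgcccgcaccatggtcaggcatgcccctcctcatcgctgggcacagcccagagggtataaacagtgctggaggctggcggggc
ALPL (first start site, chr1:21508734-21508983, plus strand): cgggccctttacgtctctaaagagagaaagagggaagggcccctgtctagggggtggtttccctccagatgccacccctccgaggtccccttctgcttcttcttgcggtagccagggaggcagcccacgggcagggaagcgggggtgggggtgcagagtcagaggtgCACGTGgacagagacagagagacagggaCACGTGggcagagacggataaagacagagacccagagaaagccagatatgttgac
SPARC (chr5:151686916-151687165, minus strand): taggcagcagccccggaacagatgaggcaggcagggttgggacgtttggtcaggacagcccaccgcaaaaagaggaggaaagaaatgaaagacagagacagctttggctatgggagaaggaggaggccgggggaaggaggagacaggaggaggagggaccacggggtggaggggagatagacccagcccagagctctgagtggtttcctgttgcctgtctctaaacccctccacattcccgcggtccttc

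In the RUNX2 window, ACCACA began 191 and 87 bases before the start site, and in those of SPP1 and BGLAP it began 142 and 163 bases before it. In the ALPL window, CACGTG began 83 and 55 bases before the start site. These matches are letters in a sequence, and no factor was measured at ACCACA in these data.

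The level of a gene is given in FPKM, fragments per kilobase of transcript scaled to library size, which corrects for length and so permits comparison between genes. The deposited loci were on hg38. SPARC (chr5:151661096-151687907), ALPL (chr1:21509365-21578412), SPP1 (chr4:87975650-87983411), TNFRSF11B (chr8:118923557-118952144), SP7 (chr12:53326576-53344793), and IBSP (chr4:87799550-87812449) each had a row with no other gene name. BGLAP had no row of its own, since its row (chr1:156212988-156248117) also named PMF1, a kinetochore gene, and the readthrough PMF1-BGLAP. Its values are therefore those of the BGLAP/PMF1 locus, and how much of them is osteocalcin RNA is unknown. The row of RUNX2 (chr6:44826730-45551082) covered more than the gene, which in RefSeq runs from 45328330 to 45551082, and the interval was shared with the overlapping gene SUPT3H and with MIR586. SUPT3H was near 0, at 0.0205 ± 0.0320 FPKM in control and 0.00968 ± 0.0335 FPKM in 6AN (SD, n = 12), and MIR586 was listed at 0. The SPARC interval also held CTB-113P19.1, at 1.11 ± 0.387 FPKM in control (SD, n = 12), and the BGLAP/PMF1 interval held PAQR6, at 8.79 ± 2.38 FPKM. Whether reads were counted by strand is not given in the sources used here, so reads where genes overlap could not be assigned with certainty.

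Levels differed widely among the 8 genes, from SPARC, the most abundant, to SP7 and IBSP, at or near 0. Of the 8 loci, 6 were in the expressed set, the 14678 loci with a mean of at least 0.7 FPKM over the 24 libraries, and SP7 and IBSP were not. FPKM do not give read totals, but the steps between low values gave relative depths. Within a table, the libraries had from 0.581 to 1.31 times the depth of the middle library in control and from 0.696 to 1.55 times it in 6AN. The 2 tables were normalized separately by the authors, so control and 6AN are set side by side as values with no test.

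The osteoblast transcription factors were at unlike levels. In control, RUNX2 ranged from 11.9 FPKM at 24 hr to 17.6 FPKM at 44 hr, with a median of 13.3. In 6AN, it ranged from 11.6 FPKM at 0 hr to 16.5 FPKM at 32 hr, with a median of 13.8. The values of the conditions overlapped almost completely. SP7 was listed at 0 in 11 of the 12 control libraries and in 7 of the 12 of 6AN. Its highest values were 0.175 FPKM at 4 hr in control and 0.171 FPKM at 24 hr in 6AN, so neither condition showed SP7 at a level near that of the expressed genes.

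Among the matrix genes, SPARC stood apart. It ranged from 290.3 to 367.7 FPKM in control, with a median of 324.5, and from 87.2 to 184.6 FPKM in 6AN, with a median of 126.4. Its control values lay between percentiles 97.9 and 98.2 of the expressed loci of their libraries, and its 6AN values between 93.5 and 96.9. SPP1 was low, with 0.969 to 3.94 FPKM in control (median 2.04) and 2.18 to 7.40 FPKM in 6AN (median 3.81). The BGLAP/PMF1 locus ranged from 19.8 to 26.9 FPKM in control (median 23.2) and from 15.7 to 32.5 FPKM in 6AN (median 22.2). IBSP was above 0 in 1 library only, at 0.112 FPKM at 8 hr in control. None of 8 genes that every cell uses, such as ACTB and GAPDH, was listed at 0 in any library. The lowest of them, TBP, had means of 16.1 FPKM in control and 15.3 FPKM in 6AN. They therefore do not bear on zeros of genes at low levels. With no read counts, no upper limit could be set on the zeros of SP7 and IBSP.

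ALPL, the mineralization enzyme, ranged from 4.83 to 9.59 FPKM in control (median 5.78) and from 2.79 to 4.99 FPKM in 6AN (median 3.68). TNFRSF11B, the decoy receptor, ranged from 30.2 to 45.8 FPKM in control (median 41.8) and from 5.29 to 12.8 FPKM in 6AN (median 7.19). Its whole control range thus lay above its whole 6AN range.

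**Figure D1:**
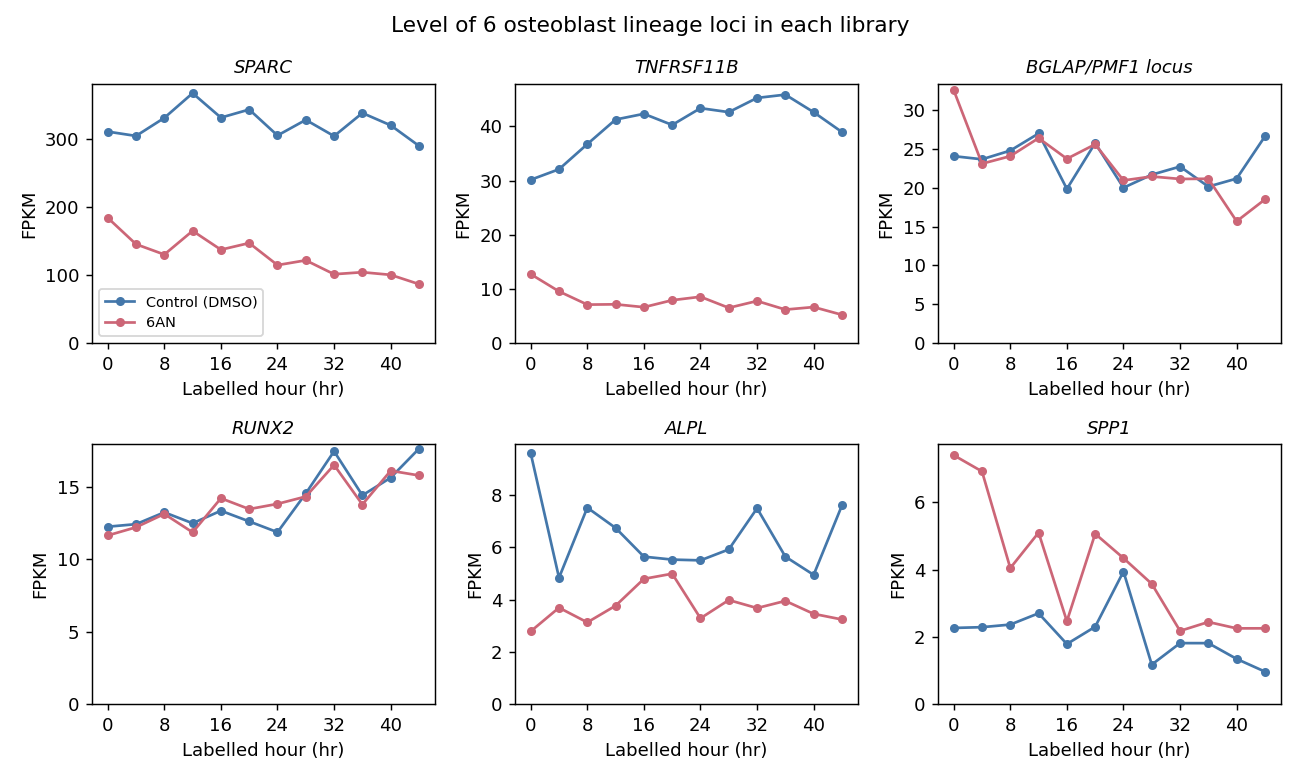
FPKM of the 6 expressed osteoblast lineage loci (y axes, starting at 0) against labelled hour (x axes), with 1 point per library, control in blue and 6AN in red. SPARC and TNFRSF11B were lower in 6AN at every hour without overlap, from 87.2 to 184.6 against 290.3 to 367.7 FPKM and from 5.29 to 12.8 against 30.2 to 45.8 FPKM, while the RUNX2 values of the conditions lay on each other.

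In control, the order of levels was SPARC, TNFRSF11B, the BGLAP/PMF1 locus, RUNX2, ALPL, and SPP1, with SP7 and IBSP last. Each of the first 6 was higher than the next at 12 of 12 hours, and their ranges did not overlap with those of the next. SPARC exceeded TNFRSF11B by 8.06-fold in mean FPKM, and ALPL exceeded SPP1 by 3.10-fold. In 6AN, TNFRSF11B came after RUNX2 rather than ahead of the BGLAP/PMF1 locus. From the BGLAP/PMF1 locus down to ALPL, each range in 6AN overlapped with the next. SPP1 and ALPL could not be ordered in 6AN, since SPP1 was the higher at 6 of 12 hours and the means were 4.00 and 3.73 FPKM. SP7 and IBSP did not differ beyond their spread in either condition.

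The label of the line was checked against other genes of the lineage and of other cell types. RUNX2, CBFB, ALPL, SPARC, and COL1A1 were present, whereas IBSP, SP7, DLX5, COL1A2, POSTN, and DCN were all at or near 0, so the full set of osteoblast markers was not found. Of the 6 osteocyte markers, 1 was in the expressed set, PDPN, at 12.8 ± 1.02 FPKM in control and 4.82 ± 1.32 FPKM in 6AN, and SOST, DMP1, MEPE, PHEX, and FGF23 were not. Of 5 chondrocyte markers, only SOX9 was expressed, at 88.3 ± 6.85 FPKM in control, above the level of RUNX2, and at 52.7 ± 5.78 FPKM in 6AN, while the cartilage genes ACAN, COL2A1, COL10A1, and COMP were near 0. The summed FPKM of the 5 adipocyte markers, of which PPARG and CEBPA were expressed, ranged from 7.70 to 14.0 in control and from 7.03 to 13.0 in 6AN. The 3 muscle markers summed to at most 1.82 FPKM in any library, and the blood marker PTPRC reached 0.446 FPKM. The 4 osteoclast markers summed to 2.99 to 7.12 FPKM in control and 6.70 to 13.6 FPKM in 6AN, with ACP5 and CALCR near 0 and OSCAR making most of the sum. OSCAR was named by 10 loci and PTPRC by 2, and only the locus with the highest mean was used for each. PDPN and SOX9 fell over the 6AN series and OSCAR rose (limma adjusted p = 0.00505, 0.0126, and 0.00454). The osteocyte markers summed to 11.8 to 15.4 FPKM in control and 3.55 to 8.04 FPKM in 6AN, with PDPN making most of the sum. The chondrocyte markers, with SOX9 making almost all of the sum, came to 76.6 to 98.4 and 44.5 to 64.7 FPKM. Both marker sums were thus lower in 6AN without overlap, as were 9.93% of all expressed loci taken singly. The part of these markers in the results for the osteoblast lineage genes was not tested. In bulk RNA, fewer cells that express a gene and less of its RNA in each cell cannot be told apart.

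The comparison of 6AN with control asked how PPP inhibition went with the levels of these genes. TNFRSF11B and SPARC were lower in 6AN at 12 of 12 hours with no overlap of their ranges, as were 9.93% of all expressed loci, and no member was higher without overlap, as were 5.66% of expressed loci. On the log2(FPKM + 1) scale, the mean difference at matched hours for TNFRSF11B was -2.26 ± 0.44 (SD over 12 hours), and for SPARC it was -1.35 ± 0.29. A mean difference of -1 or less was found for these 2 members and for 2.67% of expressed loci, and of 1 or more for no member and 1.44% of expressed loci. Over all expressed loci, the median of the mean differences was -0.037, and 5% of loci were below -0.80. Of the 8 genes that every cell uses, 2 were lower in 6AN without overlap, TUBB by -0.94 and PPIA by -0.56. RPLP0 was higher without overlap, by 0.36, and the ranges of the others overlapped. TUBB was named by 8 loci, of which the one with the highest mean was used.

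TNFRSF11B differed most. Its mean of 40.1 FPKM in control was 5.20-fold that of 7.72 FPKM in 6AN. The ratio of control to 6AN was 2.36 at 0 hr, the smallest of any hour, and 7.37 at 44 hr, the largest. SPARC had a mean of 323.2 FPKM in control and 128.6 FPKM in 6AN, a 2.51-fold ratio. This ratio likewise was smallest at 0 hr, at 1.69, and largest at 44 hr, at 3.33. The decoy receptor and the abundant matrix protein were therefore already lower in the first 6AN library of the series and further apart in the last. The labels do not say when 6AN was added relative to 0 hr, and the study plots the series from a later hour, so 0 hr cannot be read as the start of treatment.

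ALPL was lower in 6AN at 12 of 12 hours, with a mean difference of -0.64 ± 0.40 on the log2(FPKM + 1) scale, but its ranges overlapped. The ALPL ratio of 6AN to control varied from 0.290 at 0 hr to 0.902 at 20 hr, and the highest 6AN value of 4.99 FPKM was just above the lowest control value of 4.83 FPKM, at 4 hr. Without the 20 hr libraries, which hold that 6AN value, the ALPL ranges did not overlap either, which made 3 such members. The share of all expressed loci without overlap is not given here for that setting. SPP1 was the only expressed member that was higher in 6AN at 12 of 12 hours, by 0.66 ± 0.42, with a ratio from 1.10 at 24 hr to 3.26 at 0 hr and overlapping ranges. Leaving out any 1 hour, the mean difference of SPP1 stayed between 0.60 and 0.71, and that of ALPL between -0.69 and -0.56.

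RUNX2 and the BGLAP/PMF1 locus showed little difference. For RUNX2, the mean difference was -0.0050 ± 0.095 on the log2(FPKM + 1) scale, with 6AN higher at 4 of 12 hours. For the BGLAP/PMF1 locus, it was -0.029 ± 0.25, also with 6AN higher at 4 of 12 hours, and the ratio of 6AN to control went from 1.35 at 0 hr to 0.696 at 44 hr. Both differences were smaller than their SD over hours.

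**Figure D2:**
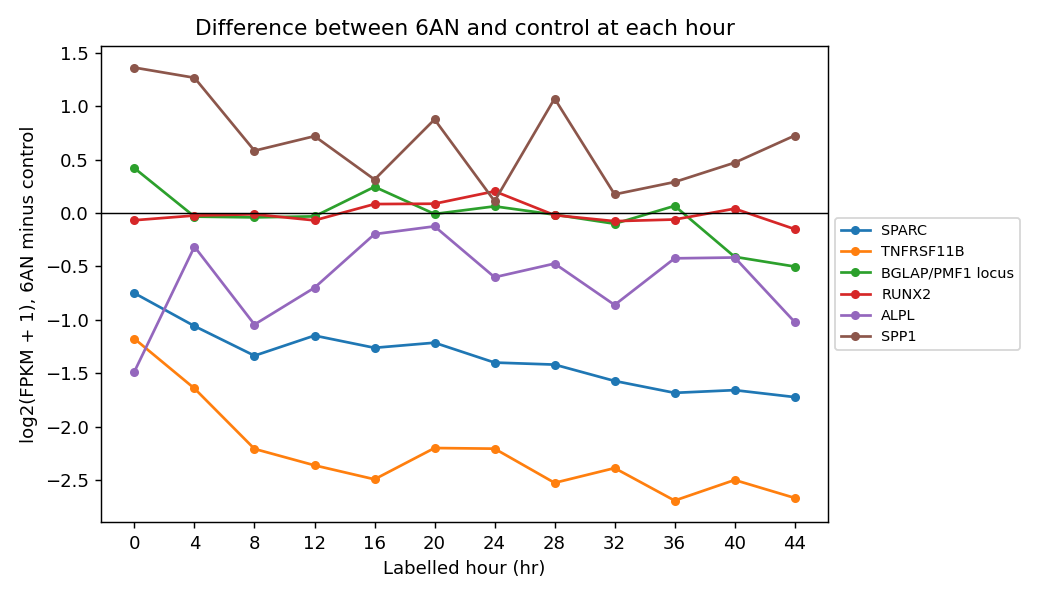
Difference in log2(FPKM + 1), 6AN minus control (y axis), at each labelled hour (x axis), with 1 line for each of the 6 expressed osteoblast lineage loci and 1 point per pair of libraries. TNFRSF11B and SPARC lie below 0 throughout, with means of -2.26 and -1.35, SPP1 lies above 0 throughout, and RUNX2 stays near 0.

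Within each table, a linear trend over the labelled hours was fitted together with a 24 hr cosine and sine, using limma on log2(FPKM + 1) over all expressed loci with Benjamini-Hochberg adjustment. The p-values measure the spread of the 12 libraries around the fitted curve, since no hour had a second library. In 6AN, 3 members fell and 1 rose at an adjusted p of at most 0.05, where 12.5% of all expressed loci fell and 10.4% rose. In control, no member was called, where 2.79% of expressed loci fell and 2.47% rose. In the control table, 2 of the 6 expressed members had an unadjusted limma p for trend under 0.05, beside 19.7% of expressed loci, and Spearman's rank test called 0 members after adjustment, beside 4.31% of expressed loci. For 6AN, these were 5 of the 6 members beside 35.9% of expressed loci, and 4 members beside 19.8%. The slopes of the tables were not compared by a test, because the tables were normalized separately.

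SPARC went from 184.6 FPKM at 0 hr to 87.2 FPKM at 44 hr in 6AN, and its slope was -0.53 ± 0.069 log2 units per 24 hr (SE, limma adjusted p = 0.00102). In control, where SPARC had 311.2 FPKM at 0 hr and 290.3 FPKM at 44 hr, its slope was -0.073 ± 0.042 (limma adjusted p = 0.389). SPP1 fell in 6AN from 7.40 FPKM at 0 hr to 2.26 FPKM at 44 hr, with a slope of -0.65 ± 0.13 (limma adjusted p = 0.00753). The slope of SPP1 in control was -0.35 ± 0.18 (limma adjusted p = 0.321), and without the 24 hr library, where SPP1 had its highest control value of 3.94 FPKM, it was -0.43 with a limma adjusted p of 0.0306. Both matrix genes were thus lowest late in 6AN, although SPARC was below and SPP1 above its control level.

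The BGLAP/PMF1 locus fell in 6AN, with a slope of -0.37 ± 0.082 log2 units per 24 hr (SE, limma adjusted p = 0.0124). Without the 0 hr library, at 32.5 FPKM, the slope was -0.30 and the limma adjusted p was 0.0524, just over the threshold. That omission also lowered the trend calls over all expressed loci in 6AN from 3358 to 2156. With all hours, Spearman's rank test called the fall of the BGLAP/PMF1 locus in 6AN (rho = -0.84, adjusted p = 0.0125). RUNX2 was the member that rose in 6AN, by 0.23 ± 0.050 log2 units per 24 hr (SE, limma adjusted p = 0.0109). Its slope in control was of similar size, 0.26 ± 0.065, with a limma adjusted p of 0.0544, just over the threshold. Under some other settings the control rise of RUNX2 was called. The limma adjusted p was 0.0448 among loci of at least 5 FPKM, 0.0331 without the cosine and sine, and 0.0237 without the 24 hr library. The rise was not called without a filter (limma adjusted p = 0.111) or by Spearman's rank test (adjusted p = 0.0673). Over all omissions of 1 hour, the limma adjusted p ran from 0.0237 to 0.163, and only the omission of 24 hr gave a call. In both conditions the RUNX2 values at 32, 40, and 44 hr were the highest 3.

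TNFRSF11B had slopes of opposite sign, 0.20 ± 0.066 log2 units per 24 hr in control (SE, limma adjusted p = 0.122) and -0.31 ± 0.10 in 6AN (limma adjusted p = 0.0525), neither of them called. The 6AN slope passed the threshold without the cosine and sine, at a limma adjusted p of 0.0216, and over all omissions of 1 hour its adjusted p ran from 0.0347 to 0.189. ALPL had no called trend, with slopes of -0.077 ± 0.15 in control and -0.019 ± 0.11 in 6AN, and its sign changed with the hours that were left out.

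**Figure D3:**
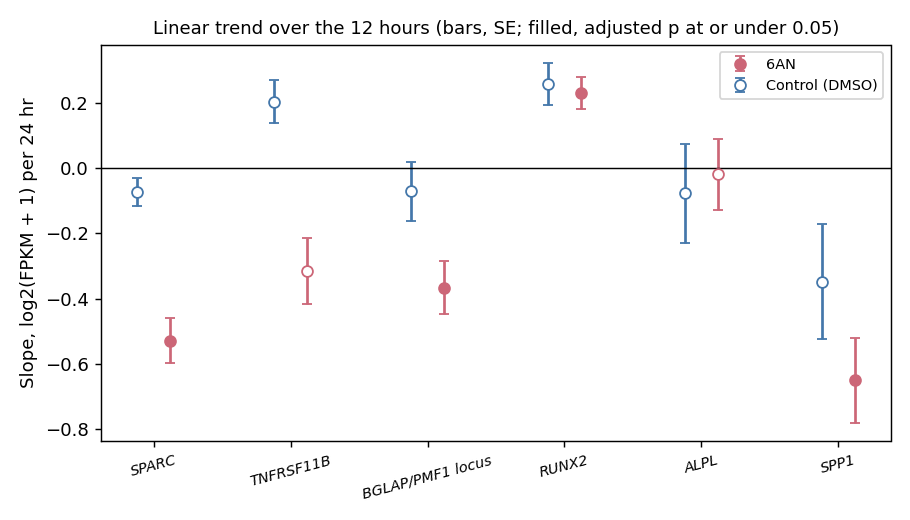
Slope of log2(FPKM + 1) per 24 hr (y axis) for the 6 expressed osteoblast lineage loci, control in blue and 6AN in red, with bars for the SE of the fit over 12 libraries. Filled points passed an adjusted p of at most 0.05, which held for SPARC, the BGLAP/PMF1 locus, SPP1, and RUNX2 in 6AN and for no locus in control.

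The time course was designed for 24 hr rhythms, and the 24 hr cosine and sine were tested jointly for each member. No member was called rhythmic in either condition at an adjusted p of at most 0.05, where 0.00681% of expressed loci in control (1 locus) and 0.0% in 6AN (0 loci) were called. At an unadjusted p of at most 0.01, again no member passed, against 1.42% of expressed loci in control and 1.94% in 6AN. At an unadjusted p under 0.05, limma passed 0 members, 970 loci in control, and 1138 loci in 6AN, and a rank test against umbrella shapes called 0 loci in either table after adjustment. The smallest unadjusted limma p of a member was 0.0596, for SPARC in control, where the fitted change from trough to peak was 0.18 log2 units, and for SPP1 in 6AN it was 0.104 with 0.48 log2 units. The calls of 0 do not show that these genes lack a rhythm.

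Genes with the most similar time course were named by Pearson's r of log2(FPKM + 1) over the 24 libraries after each table was centered on its own mean. The difference in mean level between conditions thus did not enter, while a trend in either table did. The libraries of a table share depth and normalization, and these r are descriptions over all expressed loci. For SPARC, they were CAPN5 (r = 0.92, Spearman's rho = 0.90), COL4A2 (r = 0.92, rho = 0.87), and COL6A1 (r = 0.92, rho = 0.91). COL4A2 and COL6A1 encode chains of extracellular collagens, and their mean differences between 6AN and control were -0.57 and -0.87, while CAPN5 was higher in 6AN, by 0.31. For TNFRSF11B, they included EMP1 (r = 0.84, rho = 0.75) and SEMA6B (r = 0.83, rho = 0.83). SEMA6B had a mean difference of -1.73, while EMP1 had 0.19.

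RUNX2 was most like SRSF5 (r = 0.92, rho = 0.90), ALPK1 (r = 0.90, rho = 0.93), and CHMP1B (r = 0.87, rho = 0.89). SRSF5, a splicing factor, had slopes of 0.32 in control and 0.43 in 6AN. A slope of the same sign as that of RUNX2 is largely set by the choice for a similar time course. The BGLAP/PMF1 locus was most like CDC6 (r = 0.85, rho = 0.75), SSNA1 (r = 0.84, rho = 0.84), and MCM2 (r = 0.82, rho = 0.75), of which CDC6 and MCM2 act in DNA replication. The loci most like SPP1 included SH3KBP1 (r = 0.87, rho = 0.87) and NCOA3 (r = 0.82, rho = 0.79). For ALPL, the closest were ST20-AS1 (r = 0.79, rho = 0.85), NUDT11 (r = 0.76, rho = 0.78), and TAF11 (r = 0.70, rho = 0.62), the weakest likeness of the 6 loci.

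The other genes of osteoblast function were taken from 6 groups with 40 genes, of which 30 were expressed. Of these, 7 were lower and 3 higher in 6AN without overlap of the ranges, beside 9.93% and 5.66% of all expressed loci. Their median difference was -0.15 on the log2(FPKM + 1) scale, beside -0.037 over all expressed loci. In 6AN, 10 of the 30 fell and 3 rose, beside 12.5% and 10.4% of all expressed loci (limma adjusted p of at most 0.05). In control, 2 fell and 4 rose, beside 2.79% and 2.47% of all expressed loci. None was called rhythmic in either table, and 3 of the 30 in control and 2 in 6AN had an unadjusted limma p for rhythm under 0.05, beside 6.61% and 7.75% of all expressed loci.

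Among 6 expressed matrix genes, FN1 (fibronectin), COL1A1 (a chain of type I collagen), and LUM (lumican) were the most abundant. COL1A1 ranged from 84.5 to 170.5 FPKM in control and from 13.3 to 73.8 FPKM in 6AN, a mean difference of -2.02, close to that of TNFRSF11B. It fell in both tables, with slopes of -0.58 ± 0.074 log2 units per 24 hr in control (limma adjusted p = 0.00314) and -1.26 ± 0.084 in 6AN (limma adjusted p = 5.70e-05), so SPARC and COL1A1 both fell in 6AN. FN1 rose in control, with a slope of 0.43 ± 0.047 (limma adjusted p = 0.00186), and fell in 6AN, with -0.14 ± 0.043 (limma adjusted p = 0.0390). MGP, an inhibitor of mineralization, was higher in 6AN on average, as SPP1 was, by 1.56 with overlapping ranges, and its slope was -1.19 ± 0.18 in 6AN (limma adjusted p = 0.00199) and 1.02 ± 0.23 in control (limma adjusted p = 0.0388). LUM rose in 6AN by 0.24 ± 0.060 (limma adjusted p = 0.0206).

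Among the 4 other expressed transcription factors, ATF4, which also serves the amino acid stress response, was the most abundant and was higher in 6AN without overlap, at 964.0 ± 77.1 FPKM against 510.2 ± 86.3 in control. CBFB, the partner of RUNX2, had 32.5 ± 2.87 FPKM in control and 29.5 ± 1.42 FPKM in 6AN, and its ranges overlapped between conditions as those of RUNX2 did. ATF4 rose in both tables, with slopes of 0.32 ± 0.073 in control and 0.17 ± 0.030 log2 units per 24 hr in 6AN (limma adjusted p = 0.0373 and 0.00469). Among 4 mineral genes beside ALPL, the pyrophosphate-producing enzyme ENPP1 was lower in 6AN without overlap, at 1.15 ± 0.274 against 2.31 ± 0.264 FPKM. The pyrophosphate exporter ANKH and the phosphate transporter SLC20A1 overlapped, with mean differences of 0.44 and -0.12. ENPP1 and ANKH fell in 6AN, with slopes of -0.24 ± 0.059 and -0.16 ± 0.046 log2 units per 24 hr (limma adjusted p = 0.0186 and 0.0334).

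For the osteoclast axis of TNFRSF11B, its ligand TNFSF11 was at or near 0, at 0.00999 ± 0.0235 FPKM in control and 0 in all 6AN libraries. CSF1, the other osteoclast-inducing factor, had 6.17 ± 0.650 FPKM in control and 4.94 ± 1.05 FPKM in 6AN and rose over the 6AN series by 0.38 ± 0.10 (limma adjusted p = 0.0263). Among the receptors for SPP1 and IBSP, ITGB3 was lower in 6AN without overlap, at 0.644 ± 0.283 against 3.40 ± 0.731 FPKM, CD44 was higher without overlap, at 62.7 ± 6.47 against 38.8 ± 3.91 FPKM, and ITGAV overlapped. ITGB3 rose in control, with a slope of 0.37 ± 0.078, and fell in 6AN, with -0.32 ± 0.063 (limma adjusted p = 0.0264 and 0.00718), and ITGAV fell in 6AN (limma adjusted p = 0.0163). In signalling, the most abundant genes were TGFB1, at 106.6 FPKM in control and 143.7 FPKM in 6AN, BMP4, at 40.2 and 25.7 FPKM, and FGFR1, at 22.4 and 28.9 FPKM. Of 12 expressed signalling genes, 3 were lower without overlap, BMP4, SMAD1, and WNT5A, with differences of -0.65, -0.60, and -0.52, and FGFR1 was higher, by 0.35. Of all expressed loci, 9.93% were lower and 5.66% higher without overlap. BMP4, TGFB1, and LRP5 fell in 6AN, with slopes of -0.46, -0.31, and -0.30 log2 units per 24 hr (limma adjusted p = 0.00434, 0.0122, and 0.0294), and BMPR2 fell in control, with -0.18 (limma adjusted p = 0.00767).

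Dexamethasone was given to all RNA-seq cultures, and of 6 glucocorticoid response genes, 5 were expressed. DUSP1 was higher in 6AN without overlap, at 56.6 ± 13.1 against 20.9 ± 3.33 FPKM, as were 5.66% of all expressed loci. The summed level of the 6 genes ranged from 74.0 to 109.8 FPKM in control and from 116.6 to 195.7 FPKM in 6AN. The genes of this group did not all differ alike, since the mean differences were 1.38 for DUSP1, 0.97 for PER1, 0.96 for TSC22D3, 0.18 for KLF9, and -0.27 for FKBP5, with overlapping ranges for all of these but DUSP1. KLF9 rose in control, and DUSP1 and TSC22D3 rose in 6AN (limma adjusted p = 0.0445, 0.0117, and 0.0357). The part of this group in the levels of the osteoblast lineage genes was not tested.

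**Figure D4:**
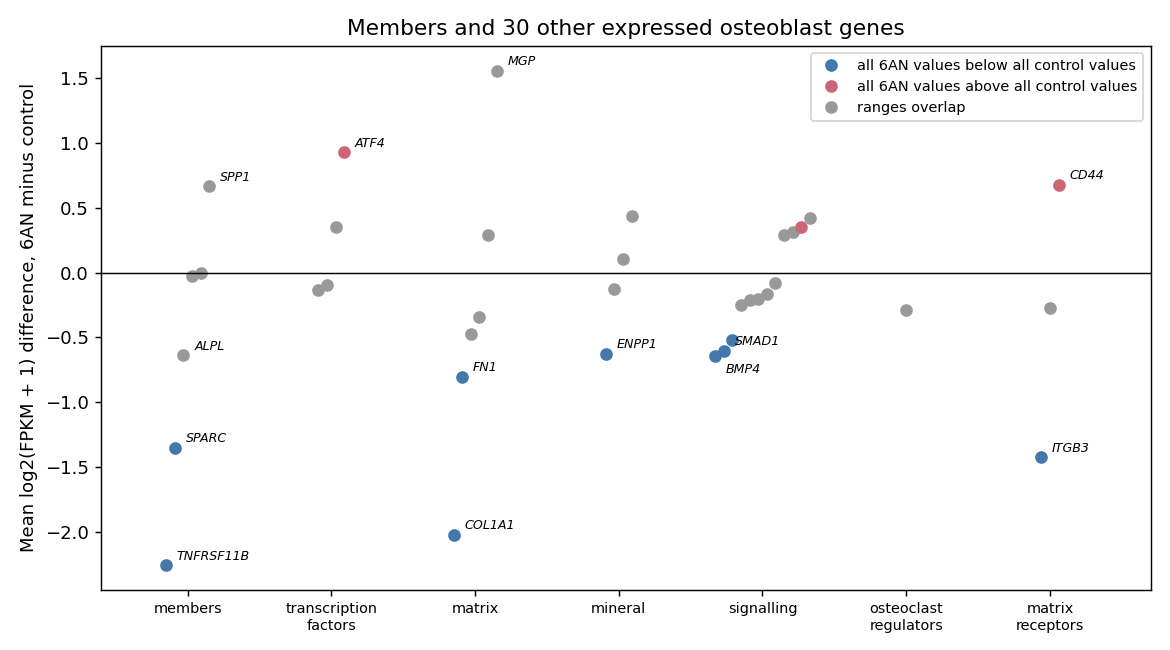
Mean difference in log2(FPKM + 1), 6AN minus control, over 12 hours (y axis) for the 6 expressed osteoblast lineage loci (members) and 30 other expressed osteoblast genes in 6 groups (x axis), with 1 point per locus. Blue and red points had no overlap between conditions, with TNFRSF11B at -2.26, COL1A1 at -2.02, ITGB3 at -1.42, and SPARC at -1.35 the lowest.

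Binding of BMAL1 and CLOCK was read from the merged list of 4001 peaks. Within 10 kb of the 8 loci there were 3 peaks, each called in the BMAL1 library of 6AN alone and in no CLOCK library. The first (chr6:45445820-45446020, peak score 25.3) lay inside RUNX2, within its RefSeq span. The second (chr12:53321415-53321615, score 21.5) lay 4.96 kb from SP7, a gene listed at 0 in most libraries, and the third (chr8:118961959-118962159, score 15.8) lay 9.81 kb from TNFRSF11B. Of all expressed loci, 31.4% had a peak within the same distance. SPARC, SPP1, ALPL, BGLAP, and IBSP had none, and the nearest peak to ALPL, with its pair of E-box letters, was 204.7 kb away. Of the sites shared by BMAL1 and CLOCK, 147 in control and 439 in 6AN, 0 were assigned to any of the 8 genes. With 1 library for each antibody and condition, a peak seen in a single library has no replicate check.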

How the data were processed

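RNA-seq libraries of 12 hours in each of 2 conditions and ChIP-seq peaks of BMAL1 and CLOCK after 24 hr of incubation were used. The authors deposited FPKM per locus, 1 table per condition, each normalized across its own libraries. The submitters' processing notes name Bowtie, Bowtie2, TopHat, Cufflinks, HOMER, and the build hg38. RNA was extracted in triplicate, and whether extracts were pooled is not stated. For peaks, the authors deposited HOMER peak scores. The tables held 0 columns of other samples.

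Fits used limma 3.58.1 in R 4.3.3 (moderated, with intensity trend) on log2(FPKM + 1), within a table only. Other values came from Python 3.11.15 with pandas 2.3.3, NumPy 2.4.6, and SciPy 1.17.1, and plots from matplotlib 3.10.9. Fits were tested on simulated data. Read totals are unknown, so no counting error is given. Genes named were the 8 members, other genes in a member's row, the 3 loci most like each, and from each list the 3 most abundant, those apart between conditions by a mean log2 difference of at least 1, and up to 5 with a called trend. Others were named after their values were seen. The members and lists were chosen with earlier results of these data known. Promoter sequences are from RefSeq. Some genes that this rule names are not reported here.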

Additional observations from a re-analysis of the deposited data

Results flagged for a closer look

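TNFRSF11B was flagged because its level moved in opposite directions from the first library of each condition. In control, all 11 later libraries were above the 0 hr library, with a median 1.40 times its 30.2 FPKM. In 6AN, all 11 later libraries were below the 0 hr library, with a median 0.560 times its 12.8 FPKM.

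ALPL was flagged for the reverse. In control, all 11 later libraries were below the 0 hr library, with a median 0.588 times its 9.59 FPKM, and in 6AN, all 11 were above it, with a median 1.32 times its 2.79 FPKM. The reference in each case is 1 library, the tables were normalized separately, and these differences between conditions were not tested. How many of all expressed loci moved in opposite directions in this way is not given here.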

How the results depend on the processing

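With 1 library per hour and condition and FPKM without read totals, small differences in SPP1, SP7, and IBSP cannot be resolved. The mean differences of the 6 expressed members moved by less than their SD over hours in all 106 recomputed values. Leaving out an hour cannot shift such a mean by its SD, and filtering loci leaves a member's own difference unchanged. Those values were therefore no check. Larger moves were possible only with 0.1 added before the log, upper-quartile scaling, or subtraction of the median difference of expressed loci. For SPP1, these gave 0.88, 0.71, and 0.70, beside 0.66 ± 0.42. The number of members without overlap was 2 to 3 when each hour was left out and 2 under each of the other settings. No member was called rhythmic under any setting, each with a 24 hr period. Over all expressed loci, rhythm calls in control went from 1 to 0 with upper-quartile scaling, without the linear term, and with the umbrella test, to 208 at an unadjusted p of at most 0.01, and to between 0 and 2 with an hour left out. In 6AN they went from 0 to 285 and to between 0 and 1. Trend calls of members in control went from 0 to 1 among loci of at least 5 FPKM, with upper-quartile scaling, without the cosine and sine, and at an unadjusted p of at most 0.01, and ran from 0 to 2 with an hour left out. Members with a trend in 6AN ran from 3 to 5. Over all expressed loci, 772 trends were called in control, 497 with no filter, 1381 at an unadjusted p of at most 0.01, and 455 to 685 with an hour left out, and in 6AN 3358 and 2156 to 3309. The uncalled slope of ALPL changed sign, from -0.019 to 0.035 without the cosine and sine in 6AN, with Spearman's rho of 0.11, and from -0.12 to 0.045 in 6AN and from -0.20 to 0.095 in control with an hour left out. Widening the window from 10 to 50 kb raised the peaks near members from 3 to 4. The causes of these changes were not tested. The differences between conditions paired the libraries by labelled hour, and no test was made of them because the tables were normalized separately.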
